A study of Mus musculus with 2 samples.

Results

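The Notch pathway genes described here were the receptors Notch1, Notch2 and Notch3, the ligands Jag1, Jag2 and Dll1, the target genes Hes1, Hey1 and Heyl, and Rbpj, the DNA-binding partner of the activated receptors. They were chosen by name, and every accessible region inside one of these 10 genes or within 50 kb of it was taken. There were 50 such regions of 32388 in all, and 10 genes of 20807 protein-coding genes on the autosomes. ATAC-seq, in which the Tn5 transposase cuts open chromatin and tags it for sequencing, was performed on cartilaginous growth zones of the E15.5 mouse femur. One group was the proximal growth plate and the other was the distal growth plate, both from FVBNJ embryos of the same stage, with no treatment or genetic change named in the labels of either. Each end was microdissected away from the bony diaphysis and pooled over a litter of 8 animals on average, and each library was made from 50000 cells in suspension. The tissue included the overlying perichondrium beside the chondrocytes, so that the cells were a mixture. Each end had 2 biological replicates, and the lists used here give 1 set of peaks per end that was reproducible between them at an irreproducible discovery rate (IDR) under 0.05.

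Notch receptors are cell surface proteins that are activated by Jagged and Delta-like ligands on a neighbouring cell. Ligand binding leads to cleavage of the receptor by ADAM proteases and then by γ-secretase, and the released intracellular domain enters the nucleus, joins Rbpj and Mastermind-like coactivators on DNA and switches on genes of the Hes and Hey families, which encode repressors of transcription. In growth plate cartilage the pathway is known for its part in chondrocyte maturation and in the balance between growth and differentiation.

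The lists hold positions only, without heights, p-values or read counts, so that the depth behind a peak is unknown and no value below has a replicate error. A region is a stretch covered by overlapping peaks of the 2 lists. It is called shared where it holds a peak of both ends and single-end where it holds a peak of 1 list only, and a single-end region means that no peak of the other end passed the threshold there. No test between the ends was possible, and fewer open cells cannot be told apart from less open chromatin per cell in such a mixture. Intervals for shares are exact 95% binomial intervals and cover counting error only. The proximal list held 28257 peaks and the distal list 27958, on the 19 autosomes. Of 13 chondrocyte markers, 7 (53.8%) had a shared region within 1 kb of a start, among them Col2a1, Acan and Sox9, and 55.0% of all protein-coding genes had one, so that the count did not set these markers apart. Sox5 had a proximal-only region, Col11a2 and Comp had distal-only regions, and Matn1, Ihh and Pth1r had none. No muscle marker of 6 had a region at a start. Of 7 osteoblast markers only Spp1 had one, in the proximal list alone. Of 8 endothelial markers Kdr and Esam had a shared region and Tek a distal-only region, of 6 blood markers Gata2 had a shared region, and of 5 perichondrium and tendon markers Twist1 and Col3a1 did. At the start of the principal transcript Gata2 had a distal-only region. Esam had none there, and neither did Sox6, which is among the 7 chondrocyte markers. The part of other cell types in the regions of the Notch genes was not tested.

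Of the 50 regions at the Notch genes, 33 were shared, 6 were proximal-only and 11 were distal-only, and they held 39 proximal and 44 distal peaks. Single-end regions made up 34.0% (interval 21.2% to 48.8%), and 27.0% of all merged regions were called in 1 list only, which lies inside that interval. By end, 22.0% of the regions of the Notch genes were distal-only beside 12.9% of all regions, and 12.0% were proximal-only beside 14.1%. With peaks narrower than the list median removed, 2 distal-only and 4 proximal-only regions were left at the Notch genes, so the larger number of distal-only regions did not hold under that setting. A promoter region, meaning a region within 1 kb of any annotated transcript start of the gene, was shared at Notch2, Jag1, Hes1, Hey1 and Rbpj. These were 5 of 10 genes, and 55.0% of all protein-coding genes had a shared promoter region. Notch1 and Heyl had promoter regions in the distal list alone, as did 2.73% of all genes. With peaks narrower than the list median removed, Notch1 had no promoter region and Heyl kept its own. The proximal list alone gave a promoter region at 0 of the 10 genes and at 1.34% of all genes. Notch3, Jag2 and Dll1 had no promoter region in either list, as did 40.9% of all genes. Single-end regions lay in the windows of 7 of the 10 genes and of 44.3% of all genes, but windows differ in how many regions they hold, with a median of 6 at the Notch genes and 3 at all genes. Notch3, Dll1 and Hey1 had shared regions only.

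**Figure D1:**
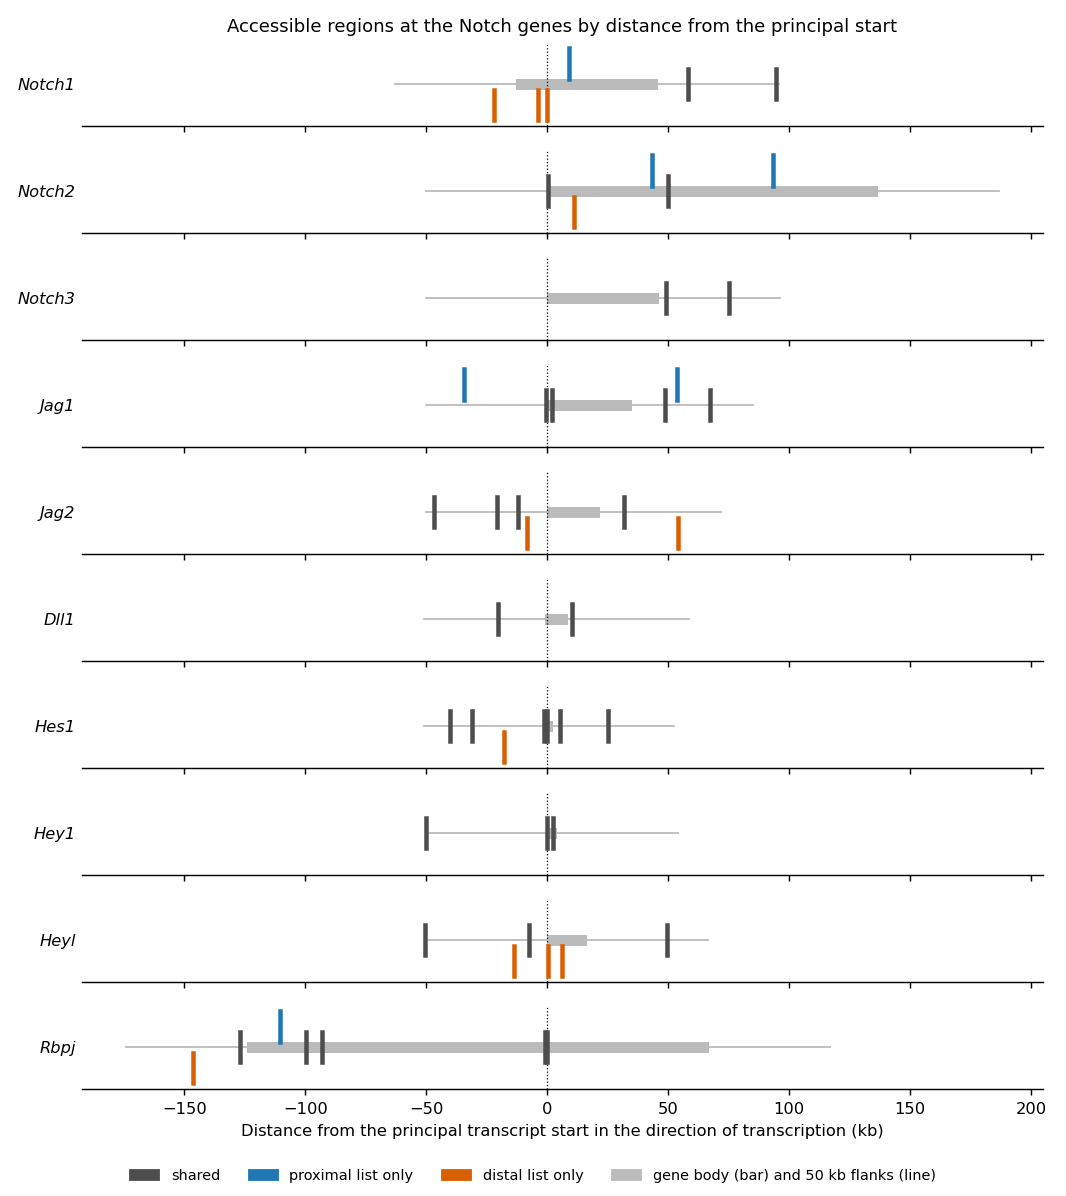
Each row is 1 gene, drawn in its direction of transcription with distance in kb from the start of its principal transcript on the horizontal axis. The grey bar is the gene, the grey line its flanks of 50 kb, and vertical ticks mark the 33 shared (dark grey, middle), 6 proximal-only (blue, raised) and 11 distal-only (orange, lowered) regions. The starts of Notch1 and Heyl carry orange ticks alone, and those of Notch3, Jag2 and Dll1 carry none.

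The promoters are shown because their state in the lists separated the members of the pathway. Sequences are the RefSeq promoter stretches on the mm10 (GRCm38) build, which 7 of the 10 genes matched, cut to the part upstream of coding exons, and were printed for the 6 genes with at least 50 bases of it. They are the reference sequence and not that of the FVBNJ strain. Capitals mark the HES class C word CACGCG and the RBPJ core word TGGGAA, on either strand, among the words searched for. The stretches of Notch2 (chr3:98013288-98013526, plus strand), Jag1 (chr2:137116645-137116770, minus strand) and Rbpj (chr5:53590096-53590213, plus strand) lay in shared regions. That of Notch1 (chr2:26503825-26504072, minus strand) lay in a distal-only region and overlaps an exon of the noncoding RNA gene Gm35978 on the other strand. Those of Dll1 (chr17:15376933-15377182, minus strand) and Notch3 (chr17:32166897-32167140, minus strand) lay in no region.
Notch2 promoter: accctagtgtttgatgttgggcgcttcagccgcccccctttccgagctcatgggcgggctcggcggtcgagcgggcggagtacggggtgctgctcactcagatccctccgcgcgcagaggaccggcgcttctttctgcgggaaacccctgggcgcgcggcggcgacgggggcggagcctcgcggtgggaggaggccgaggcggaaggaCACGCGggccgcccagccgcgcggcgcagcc
Jag1 promoter: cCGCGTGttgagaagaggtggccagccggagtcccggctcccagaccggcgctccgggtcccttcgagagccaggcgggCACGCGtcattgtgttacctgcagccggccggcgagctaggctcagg
Rbpj promoter: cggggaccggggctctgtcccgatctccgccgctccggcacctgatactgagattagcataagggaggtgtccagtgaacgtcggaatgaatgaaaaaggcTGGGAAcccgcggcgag
Notch1 promoter: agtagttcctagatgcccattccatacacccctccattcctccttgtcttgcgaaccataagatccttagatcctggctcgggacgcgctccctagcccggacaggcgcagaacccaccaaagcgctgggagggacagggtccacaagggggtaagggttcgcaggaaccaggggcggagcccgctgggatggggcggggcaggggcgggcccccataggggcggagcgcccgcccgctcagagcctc
Dll1 promoter: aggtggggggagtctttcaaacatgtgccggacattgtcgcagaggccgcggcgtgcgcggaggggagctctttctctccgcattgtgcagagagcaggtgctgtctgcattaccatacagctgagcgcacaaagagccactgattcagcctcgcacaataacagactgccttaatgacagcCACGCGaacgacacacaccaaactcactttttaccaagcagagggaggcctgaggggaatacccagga
Notch3 promoter: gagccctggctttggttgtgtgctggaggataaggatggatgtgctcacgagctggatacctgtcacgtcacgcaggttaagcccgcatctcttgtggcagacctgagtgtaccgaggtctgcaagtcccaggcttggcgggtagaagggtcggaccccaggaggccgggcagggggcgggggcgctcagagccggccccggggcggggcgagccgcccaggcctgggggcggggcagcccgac

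Over 300 bases at the principal start (250 before it and 50 after), 9 of the 10 genes met the criteria of a CpG-rich start, with a ratio of observed to expected CpG of at least 0.6 and a GC content of at least 50%. The criteria were chosen after the promoter states were known. Among all genes with a CpG-rich start, 85.0% had a shared promoter region, 10.6% had none and 2.95% had a distal-only region. Among the 9 Notch genes with such a start, 5 were shared, 3 had none and 1 was distal-only. These are few genes, and their difference from all genes with such a start was not tested. The 3 without a region were GC-rich at the start, with 71.7% GC at Notch3, 74.0% at Jag2 and 63.3% at Dll1. Notch2 had 73.0%, Jag1 60.0% and Rbpj 65.7%, so the genes with and without a promoter region overlapped in GC content. The ratio of observed to expected CpG overlapped less. It ran from 0.790 at Rbpj to 1.04 at Notch2 over the genes with a shared promoter region. Dll1 (0.619), Notch3 (0.712) and the distal-only Notch1 (0.660) lay below that range, and Jag2 (0.920) lay within it. Whether the ratio goes with the promoter state was not tested. Heyl was the exception, with a ratio of 0.230, and its promoter region was distal-only. The 300 bases lay mostly upstream of the start of Heyl, whereas that region lay mostly downstream of it. The region itself had 67.3% GC and 7.87 CpG per 100 bp, so the ratio does not describe the accessible sequence.

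Of the receptors, Notch2 had a promoter region of both ends, Notch1 of the distal end alone, and Notch3 of neither. Single-end regions were 7 of the 13 at the receptors (53.8%, interval 25.1% to 80.8%), and the interval holds both the 27.0% of all regions and the 38.0% of those away from gene starts. Notch1 (chr2:26457903-26516663, minus strand) is a main receptor of the pathway and had 6 regions. The promoter region, 680 bp wide (the median of the distal list was 691 bp) with a GC content of 68.5%, covered the principal start and was distal-only, and the nearest proximal peak lay 8596 bp away. A distal-only region of 455 bp lay 3599 bp upstream of the principal start, in an intron of a longer transcript, and another of 554 bp lay 21851 bp upstream. The one proximal-only region, of 396 bp, lay in an intron 8965 bp downstream of the start. Thus the 4 regions nearest to the start of Notch1 were all single-end, 3 of them distal. The 2 shared regions of its window lay downstream of the gene, at the starts of Sec16a and Inpp5e.

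The outermost distal-only region and the intronic proximal-only region of Notch1 are printed because each holds the RBPJ word GTGGGAA within the 300 bases searched, 1 in each list. Both are the plus strand of 300 bases around the region centre, at chr2:26525800-26526099 and chr2:26494510-26494809. Capitals mark GTGGGAA in both, and in the first also the AP-1 word TGAGTCA, read on the other strand as TGACTCA. The RBPJ word stands at bases 29 to 35 of the first and 33 to 39 of the second, in both outside the 200 bases around the centre. The second begins with a run of a CA repeat, and 9.59% of the 32-base words of its region occur in more than 1 place in the genome.
Notch1 upstream, distal-only: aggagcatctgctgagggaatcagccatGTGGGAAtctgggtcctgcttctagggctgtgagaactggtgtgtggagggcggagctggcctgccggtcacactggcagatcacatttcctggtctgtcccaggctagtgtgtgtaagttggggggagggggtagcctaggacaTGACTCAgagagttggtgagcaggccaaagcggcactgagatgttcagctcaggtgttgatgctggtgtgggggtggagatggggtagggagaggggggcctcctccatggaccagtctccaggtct
Notch1 intron, proximal-only: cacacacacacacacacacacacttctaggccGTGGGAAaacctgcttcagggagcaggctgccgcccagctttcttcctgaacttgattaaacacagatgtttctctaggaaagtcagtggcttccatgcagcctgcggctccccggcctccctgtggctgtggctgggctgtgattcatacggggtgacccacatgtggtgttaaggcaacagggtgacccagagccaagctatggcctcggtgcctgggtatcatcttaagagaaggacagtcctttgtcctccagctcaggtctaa

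Notch2 (chr3:98013527-98150361, plus strand) is the longest of the receptor genes and had 5 regions, all of which touched the gene. Its promoter peaks were of nearly equal width, 1223 bp in the proximal and 1216 bp in the distal list. Inside the gene the lists differed. A distal-only region of 495 bp lay 10864 bp from the start, a proximal-only region of 1147 bp lay in an intron 42772 bp from it, and a proximal-only region of 339 bp touched an exon 93212 bp from it. The region of 1147 bp was the widest single-end region of all 10 genes, and a distal peak, that of a shared intronic region of 541 bp, lay 5769 bp away. Notch3 (chr17:32120820-32166852, minus strand), a receptor known from vascular smooth muscle, had no region inside the gene. The nearest region lay 48477 bp from its start, past the other end of the gene, and the next 74634 bp from the start. Both were shared, with 721 and 754 bp of proximal and distal peak at the nearer and 1099 and 1010 bp at the farther.

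The regions downstream of Notch3 are copies of each other. Aligned on opposite strands, they were 93.9% identical over 774 columns, and 44.8% of the 32-base words of the nearer and 32.8% of those of the farther region occur in more than 1 place in the genome, in up to 3 places. A read that lies within such words fits more than 1 place, and the farther region lies at the start of the pseudogene Pdxk-ps. The 300 bases searched in the nearer region held the RBPJ word GTGGGAA, and those of both held the RBPJ core TGGGAA and the RUNX word TGTGGTT.

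Among the ligands, a promoter region was present at Jag1 alone and was shared. Of the 14 regions of the ligands, 12 lay in the flanks, 10 were shared and 4 were single-end, 2 in each list. The single-end share was 28.6% (interval 8.39% to 58.1%), near the 27.0% of all regions. Jag1 (chr2:137081456-137116644, minus strand), a ligand of the Jagged type, had 6 regions. Its promoter region held a proximal peak of 1348 bp and a distal peak of 1210 bp, and an intronic region 1520 bp downstream of the start held peaks of 932 and 903 bp. Proximal-only regions of Jag1 lay 34275 bp upstream (498 bp wide) and 53484 bp downstream of the start (583 bp wide), and no region of its window was distal-only. The 3 regions downstream of Jag1, at 48406, 53484 and 66858 bp from the start, lay inside the neighbouring gene Slx4ip, and the one at 48406 bp had 27.2% of its 32-base words in more than 1 place. The region at 66858 bp, with peaks of 510 and 485 bp, is printed because it held more RBPJ words than any other region centre that was printed. GTGGGAA stands at bases 184 to 190 and, on the other strand as TTCCCAC, at bases 86 to 92. The core TGGGAA stands once more at bases 206 to 211 and the AP-1 word at bases 232 to 238 (chr2:137049367-137049666, plus strand).
Jag1 downstream, shared: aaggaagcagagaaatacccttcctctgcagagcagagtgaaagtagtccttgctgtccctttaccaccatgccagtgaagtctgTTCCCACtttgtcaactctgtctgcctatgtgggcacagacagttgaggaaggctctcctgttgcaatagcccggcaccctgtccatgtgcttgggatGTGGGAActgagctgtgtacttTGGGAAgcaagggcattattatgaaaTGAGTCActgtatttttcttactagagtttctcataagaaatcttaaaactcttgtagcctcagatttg

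Jag2 (chr12:112907819-112929776, minus strand), the other Jagged ligand, had 6 regions and none inside the gene. The nearest, a distal-only region of 488 bp, lay 8076 bp upstream of the start, inside Nudt14 and within 1 kb of a start of that gene, and a proximal peak lay 3394 bp from it. Another 3 upstream regions were shared, at 11957 bp (a start of Nudt14), 20413 bp (a start of the noncoding Gm26583) and 46455 bp (the start of Btbd6). Downstream, a shared region with peaks of 940 and 721 bp lay 31321 bp from the start and a distal-only region of 374 bp lay 53822 bp from it, near a start of 1700127F24Rik. Dll1 (chr17:15367354-15376872, minus strand), a Delta-like ligand, had 2 regions, both shared. The region 19709 bp upstream lay at the start of Fam120b. The other lay 9847 bp downstream of the principal start, beyond the end of the gene, with peaks of 361 and 394 bp. It was the only region of Dll1 away from other gene starts, and it is printed with the AP-1 word TGAGTCA and the reverse complement CCATTGT of the SOX word ACAATGG in capitals (chr17:15365767-15366066, plus strand).
Dll1 downstream, shared: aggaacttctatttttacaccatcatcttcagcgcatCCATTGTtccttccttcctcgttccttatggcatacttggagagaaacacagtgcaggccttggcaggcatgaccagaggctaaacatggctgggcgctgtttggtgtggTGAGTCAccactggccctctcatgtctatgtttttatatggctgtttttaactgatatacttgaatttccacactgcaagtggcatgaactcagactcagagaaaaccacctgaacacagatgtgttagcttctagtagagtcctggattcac

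The target genes had 16 regions, of which 12 were shared, 4 distal-only and 0 proximal-only. Single-end regions were 25.0% (interval 7.27% to 52.4%), near the 27.0% of all regions. Of all regions 12.9% were distal-only and 14.1% proximal-only. Of the 4 distal-only regions of the targets 3 belonged to Heyl. Hes1 (chr16:30064384-30067796, plus strand), a repressor that is induced by Notch in many tissues, had 7 regions, and 6 of them were shared. A region of 373 bp covered the principal start, with peaks of 348 and 373 bp, and a wider one with peaks of 899 and 886 bp ended 820 bp upstream of it, at the start of another transcript. Further shared regions lay in its flanks, at 30818 and 40101 bp upstream and at 4652 and 24811 bp downstream. The distal-only region of Hes1, of 586 bp, lay 17448 bp upstream, and the nearest proximal peak was 12871 bp from it. Hey1 (chr3:8663359-8667256, minus strand), a related repressor, had 3 shared regions. They covered the start with peaks of 1303 and 1239 bp, an exon 2202 bp downstream with peaks of 533 and 499 bp, and a site 49828 bp upstream with peaks of 963 and 782 bp.

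Heyl (chr4:123233556-123249875, plus strand), the third repressor of the family studied here, had 6 regions, and both of its promoter regions were distal-only. The region at the principal start was 661 bp wide and 7031 bp from the nearest proximal peak. The region at the start of a shorter noncoding transcript, 5854 bp downstream, was 814 bp wide and 12927 bp from the nearest proximal peak, and it was the widest distal-only region of the 10 genes. Their GC contents were 67.3% and 67.6%. A distal-only region of 316 bp, the narrowest of the 50, lay 13477 bp upstream. Between it and the start, 7073 bp upstream, a region was shared with peaks of 677 and 721 bp. The remaining regions of Heyl were shared and lay at the starts of other genes, Hpcal4 upstream and Pabpc4 downstream, and 40.2% of the 32-base words of the latter occur in more than 1 place.

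Rbpj (chr5:53466152-53657362, plus strand), the longest of the 10 genes, had 7 regions, of which 5 were shared. A shared region with peaks of 847 and 721 bp covered its principal start, and another with peaks of 1025 and 971 bp ended 595 bp before that start. In the long upstream part of the gene, 3 intronic regions lay 92449, 99271 and 110058 bp before the principal start, and the outermost of them was proximal-only with a width of 735 bp. The region at 92449 bp held a proximal peak of 1195 bp but a distal peak of 565 bp. Its peaks overlapped over 47.3% of the region, the least of all shared regions of the 10 genes. Upstream of the gene a shared region lay 126874 bp and a distal-only region of 578 bp 145986 bp from the principal start.

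By position, the promoters held 10 regions, exons and introns 11, and the flanks 29. Of the promoter regions 7 were shared and 3 distal-only. Inside the genes 5 were shared, 4 proximal-only and 2 distal-only, and in the flanks 21 were shared, 2 proximal-only and 6 distal-only. All 6 proximal-only regions thus lay away from the promoters. Most proximal-only regions of the whole lists did so too, since 3891 of 4559 lay over 1 kb from any gene start. Receptors held 6 of the 11 regions in exons and introns, and 5 of those 6 were single-end. The ligands and the targets each held 1, which was shared, and Rbpj held 3, of which 1 was single-end. These counts are small, and the difference between the roles was not tested. The genes differ in length, and the window of a long gene holds more intron, from a gene of 3413 bp at Hes1 to one of 191211 bp at Rbpj. Of the flank regions 8 lay at the start of another protein-coding gene, 7 shared and 1 distal-only. The other 21 flank regions were 14 shared, 2 proximal-only and 5 distal-only. Within 1 kb of any gene start, 5 of the 21 regions of the Notch genes were single-end (23.8%, interval 8.22% to 47.2%), and 12.2% of all such regions were. Elsewhere 12 of 29 were (41.4%, interval 23.5% to 61.1%), and 38.0% of all such regions were. Both intervals hold the value of all regions.

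**Figure D2:**
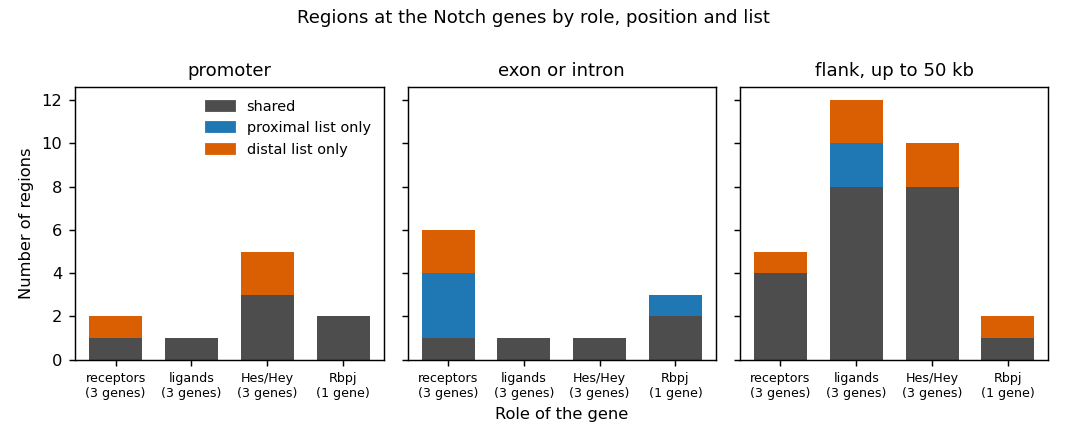
Bars give the number of regions at the 3 receptors, 3 ligands, 3 Hes/Hey targets and Rbpj, split by position (panels) and by list (colours). Receptors have 6 regions in exons or introns, of which 1 is shared, and Rbpj has 3, of which 2 are shared. Ligands have 12 of their 14 regions in the flanks.

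The 50 kb limit set which regions were counted. The regions just inside it lay 49828 bp from Hey1, 49715 bp from Heyl and 48445 bp from Notch1, and all were shared. Just outside it were a shared region 54934 bp from Hes1, a proximal-only region 57964 bp from Hey1 and a proximal-only region 63011 bp from Rbpj.

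Peaks of both ends were of similar width where a region was shared. The median width of the shared regions was 810 bp (373 to 1607), beside 812 bp for all shared regions. The overlap of both peaks covered a median of 90.4% of the region, beside 88.7%. The proximal peak was the wider in 22 of the 33 (66.7%), beside 57.1% of all shared regions, with a median ratio of proximal to distal width of 1.05 beside 1.02. The clearest departures were the Rbpj intron described above and the Hpcal4 start near Heyl, with 1449 bp in the proximal and 943 bp in the distal list. Proximal-only regions had a median width of 540 bp and distal-only regions of 554 bp, beside 510 and 497 bp over all single-end regions of each kind. Single-end regions of the Notch genes were thus narrower in the median than shared ones, as in the whole lists. The width of a shared region spans the peaks of both ends, so this does not compare single peaks, and part of the difference follows from the definition.

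**Figure D3:**
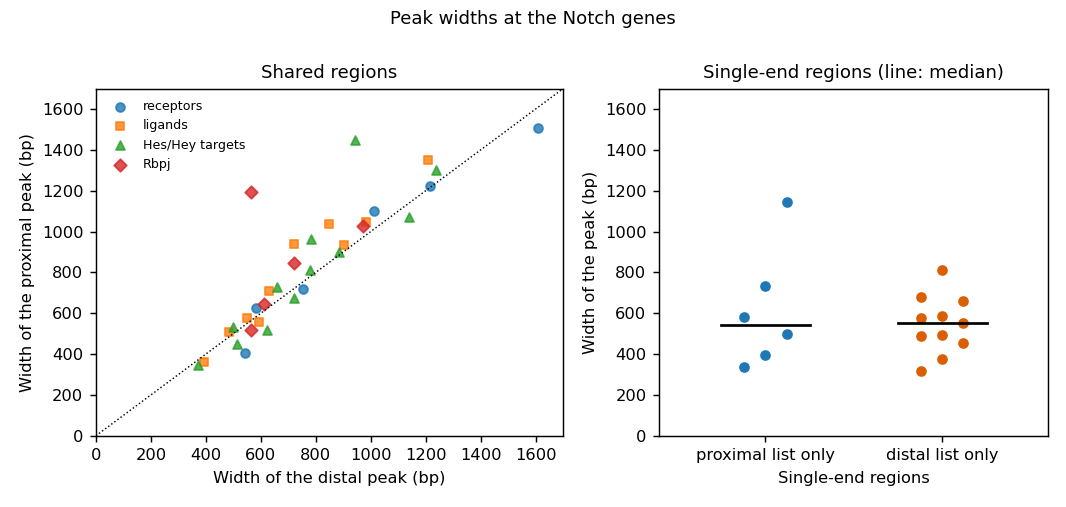
Left, width of the proximal peak against the distal peak in bp for the 33 shared regions, 1 point per region with the role of the gene as symbol, and the dotted line where both are equal. Right, widths of the 6 proximal-only and 11 distal-only regions, with the median as a line (540 and 554 bp). The Rbpj intron and the Hpcal4 start stand far above the dotted line.

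The number of regions per 100 kb of window ranged from 1.37 at Notch3 to 6.77 at Hes1, with a median of 3.33 at the Notch genes and 2.07 at all protein-coding genes. After Hes1 came Heyl (5.16), Jag2 (4.92), Jag1 (4.44), Notch1 (3.78), Hey1 (2.89), Rbpj (2.40), Notch2 (2.11) and Dll1 (1.83). Hes1 was at or above 97.0% of all genes, Heyl 90.9% and Jag2 89.8%, although none of the regions of Jag2 lay inside that gene. Notch3 was at or above 32.1%. Peaks covered 4.74% of the window of Hes1 and a median of 2.71% over the Notch genes, beside 1.78% over all genes. Counts of this kind have no replicate error, and neighbours in this order differ by a few regions.

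**Figure D4:**
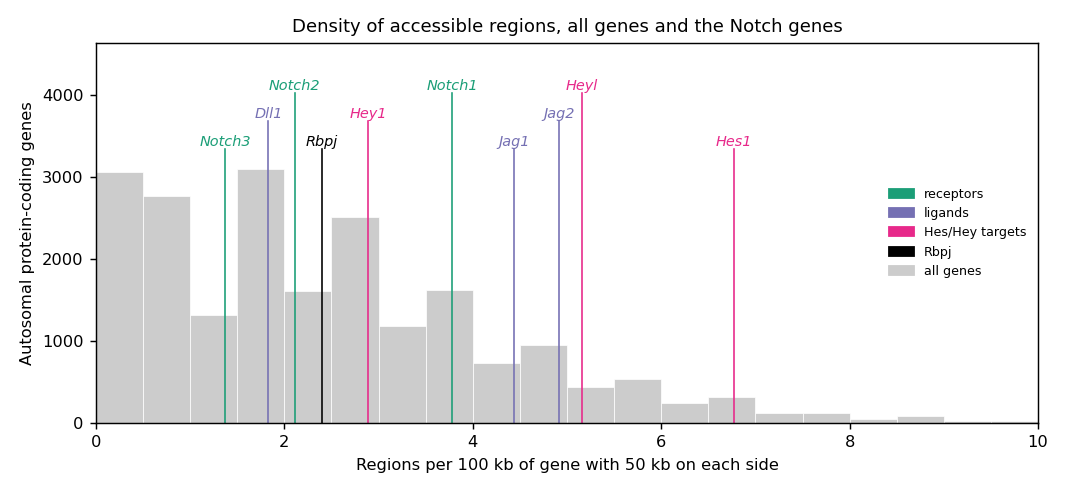
Histogram of regions per 100 kb of window (the gene with 50 kb on each side) over 20807 autosomal protein-coding genes, with the 10 Notch genes marked by lines coloured by role. The axis ends at 10, and 74 genes lie beyond it. Hes1 stands at 6.77 and Notch3 at 1.37.

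Short words that represent binding sites were searched on both strands in 300 bases around each region centre. A match describes the letters only and says nothing of binding. The RBPJ word GTGGGAA, which contains the core TGGGAA, was present in 8 of 50 regions (16.0%), and in 6.85% of all regions of the lists and 6.38% of all RefSeq promoters of 300 bases. Its core was present in 20 (40.0%, beside 25.0% of all regions and 25.6% of promoters). Besides those of Notch1 and Jag1 printed above and the nearer one of Notch3, the regions with GTGGGAA were the Hes1 region at the principal start, the Hey1 region 49828 bp upstream, the Jag2 region at Gm26583 and the Rbpj promoter region that ends 595 bp before the start. By role they were 3 of 13 regions at the receptors, 2 of 14 at the ligands, 2 of 16 at the targets and 1 of 7 at Rbpj. By list, 6 were shared, 1 was proximal-only and 1 distal-only. The count rests on few regions, since it was 5 in 200 bases and 14 in whole regions, and the nearer Notch3 copy is among the 8.

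The HES class C word CACGCG, a site bound by Hes repressors, was present in 7 regions (14.0%, beside 9.44% of all regions and 9.27% of promoters), among them the region at the principal start of Hes1 and the promoter regions of Notch2 and Hey1. The E-box CACGTG was present in 2 (4.00%, beside 5.66% and 7.15%), both distal-only regions in the flanks of Jag2. The AP-1 word TGAGTCA was present in 15 regions (30.0%, beside 24.8% and 5.20%), 4 of them among the 7 regions of Rbpj and 0 in a promoter region of the 10 genes. The RUNX word TGTGGTT was present in 5 (10.0%, beside 6.67% and 5.27%), among them both copies near Notch3. The SOX word ACAATGG was present in 3 (6.0%, beside 1.84% and 3.66%), which were the Dll1 region printed above, the distal-only region of Hes1 and the intronic region of Rbpj with unequal peak widths.

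A further 47 genes of the pathway, listed by function, had a shared promoter region in 34 cases (72.3%), beside 55.0% of all protein-coding genes and 85.0% of those with a CpG-rich start. All 8 genes of receptor cleavage were shared, among them Adam10, Adam17 and Ncstn, which encode the protease and γ-secretase parts that cut the receptor. Of 5 genes of receptor glycosylation 4 were shared, and Mfng, a Fringe glycosyltransferase, had no promoter region. Of 10 nuclear cofactors 8 were shared. Maml3, a Mastermind-like coactivator, had a proximal-only promoter region and, inside the gene, 2 proximal-only and 4 distal-only regions. Maml2, another coactivator, had a shared promoter region with 3 proximal-only regions and 1 distal-only region inside the gene. Rbpjl, the paralogue of Rbpj, had no promoter region. Of 13 genes of endocytosis and turnover 10 were shared, Neurl1a, a ubiquitin ligase, was proximal-only, and Neurl1b and Nrarp had no promoter region. The regions of Neurl1a and of Numb, which is among the 10, lay at other annotated starts, and their principal starts had no region. Single proximal-only regions lay inside Numb, an inhibitor of the receptors, Dtx4 and Fbxw7, a ubiquitin ligase that limits the intracellular domain.

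Of the other receptor and ligands 2 of 5 were shared (Notch4 and Dlk2), Dlk1, a noncanonical ligand, had a distal-only promoter region, and Dll3 and Dll4 had none. The shared region of Notch4 lay at another annotated start, and its principal start had no region. Among the other Hes and Hey genes 2 of 6 were shared (Hes6 and Hey2), and Hes2, Hes3, Hes5 and Hes7 had none, although a proximal-only region touched Hes7. Psen2, a γ-secretase subunit with a shared promoter region, held 1 distal-only region. The groups are small and the difference between them was not tested.

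**Figure D5:**
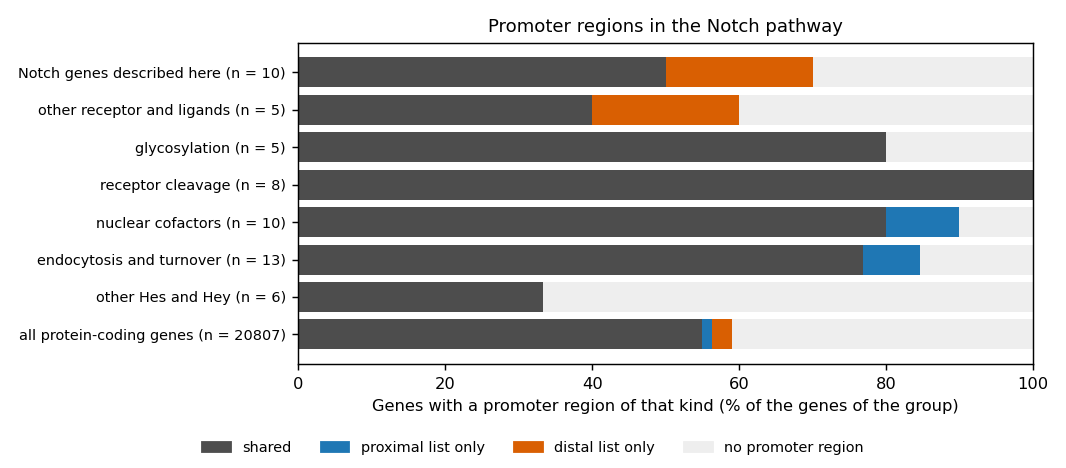
Percent of the genes of each group with a shared (dark grey), proximal-only (blue) or distal-only (orange) promoter region. The pale rest has no promoter region, except 18 of all protein-coding genes that have separate regions of each end. Receptor cleavage genes are shared throughout, and the 10 Notch genes described here have 5 shared and 2 distal-only promoters.

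Of the 50 regions 39 had every 32-base word in 1 place of the assembled chromosomes, and 4 had over 10% of their words in more than 1 place, namely both regions of Notch3, the Jag1 region 48406 bp from the start and the Pabpc4 start near Heyl. All 4 were shared. The single-end promoter regions of Notch1 and Heyl had 0 repeated words.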

How the data were processed

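ATAC-seq reads were aligned to mm10 with Bowtie2, cleared of duplicates and passed to MACS2, and peaks under an IDR of 0.05 between the 2 replicates of an end were kept. The submitters' processing notes name Bowtie2 2.2.8 and MACS2 2.1.1, and the study's methods name an earlier MACS2 release. The files deposited by the authors hold chromosome, start and end of each peak, with no signal, score or count. The paper states an average read yield per sample, but the number of reads behind each peak is unknown, and replicates could not be compared.

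Peaks that overlapped by at least 1 bp were merged. Regions were placed against GENCODE mouse release 21 on GRCm38, in the order promoter (1 kb), exon, intron, flank (50 kb). The principal start is that of the transcript marked as principal in GENCODE. Word searches and the count of 32-base words over the chromosomes used the GRCm38 sequence. The word count, the CpG criteria and the principal start were added after the data had been seen. Sequences were read with pysam 0.24.0 and aligned with Biopython 1.88 under Python 3.11.15, with NumPy 2.4.6 for counting and SciPy 1.17.1 for intervals, and the merging, placing and counting steps were tested on simulated data.

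The genes, lists and words were chosen with earlier results of these data known. All 10 genes were named with every region, further pathway genes where they had no or a single-end promoter region or a single-end region inside the gene, plus examples with shared regions that were chosen after their values were seen, and other genes where a region lay at or inside them. Alternatives varied the window, promoter distance, overlap, peak width, transcript starts, assignment to the nearest start and word window. Some further items are not reported here.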

Additional observations from a re-analysis of the deposited data

How the results depend on the processing

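Of 128 recomputed values, 90 were labelled close to the reported value and 38 moved. All were counts or shares, so none could change sign. The label is not a measure of relative change. A fall from 10 to 7 promoter regions counted as close, and one from 55.0% to 54.2% of all genes as moved. Joining peaks of both ends within 500 bp left the counts recomputed under it unchanged. Reciprocal overlap of 50% moved none by that label. It did split the Rbpj intronic region with unequal peak widths into single-end regions. This gave 51 regions in place of 50, with 32 shared, 7 proximal-only and 12 distal-only. Within 10 kb of the genes there were 29 regions, 18 shared and 7 distal-only, with 5 at the ligands, 8 at the targets and 8 in flanks. Within 100 kb there were 10 proximal-only regions, 22 at the ligands and 50 in flanks. With peaks narrower than the list median removed, 23 regions remained in count, 17 shared, 4 proximal-only and 2 distal-only, so that proximal-only regions outnumbered distal-only ones, with 5 at the receptors, 5 at the ligands, 9 at the targets and 4 at Rbpj, and with 4 in exons or introns and 12 in flanks. Only 1 gene, Heyl, then had a distal-only promoter region, and Notch1 had none. Of all genes, 43.8% were then shared, 49.4% without and 3.94% distal-only at the promoter. With regions kept only where the nearest coding start was that of the gene, 8 lay at the ligands and 18 in flanks. Shared and absent promoter regions over all genes were 54.2% and 41.8% at 500 bp, 57.2% and 38.2% at 3 kb, 54.1% and 41.8% for starts of coding transcripts, and 52.2% and 43.8% for principal starts, the last chosen after seeing the data. At 3 kb Dll1 became shared, through its downstream region and the start of an internal transcript. In whole regions the RBPJ, RUNX, E-box and HES class C words were in 14, 12, 8 and 17 regions, and in 200 bases the RBPJ word was in 5 and the E-box in 1. The cause was not tested.

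No paired analysis was possible because each list combines the replicates, so that leaving out 1 replicate was not an alternative here. The lists give no height, and how far a region absent from 1 list lay below the threshold was not analysed here.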
